A study of Mus musculus with 6 samples.

Results

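The keratin gene family was followed through 6 single-cell libraries of 4T1 breast tumours grown in Balb/c mice. Its members were all gene symbols made of Krt and a number alone, each counted once, which gave 47 genes of the 27933 in the count matrices. Of these, 26 were type I and 21 were type II. Krt6a, Krt6b, Krt33a and Krt33b carry a letter after the number and were no members. In barcodes with at least 200 detected genes, 33 members had at least 1 UMI (unique molecular identifier, a tag that marks 1 captured RNA molecule), and 14 had none. The members held 17946 UMIs in all.

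Keratins build the intermediate filaments of epithelial cells. Each filament is made of pairs of an acidic type I chain and a basic type II chain, so an epithelial cell makes members of both types. The pair differs by epithelium: Krt8 with Krt18, joined by Krt7 and Krt19, in simple and luminal epithelia, Krt5 with Krt14 in the basal layer of skin and in mammary myoepithelium, Krt1 with Krt10 in the upper layers of the epidermis, and a further set, among them Krt25, Krt27, Krt28, Krt71 and Krt73, in the inner root sheath of the hair follicle.

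4T1 is a carcinoma line derived from the mouse mammary gland. A tumour sample can hold keratin from the tumour cells, from the mammary gland they grow in and from the overlying skin. There were 3 libraries from tumours given FVIO-MHT, a heat treatment with magnetic iron oxide particles placed in the tumour at 0.1 mg per cm3 of tumour volume, an alternating field of 365 kHz for 10 min and collection after 24 h, and 3 libraries from tumours given PBS, the saline control. The same protocol text stands on all 6 samples, so it is not given whether the PBS tumours were exposed to the field, and no label says that the replicates came from separate mice. The p-values therefore measure the spread between these libraries, which may be technical. The labels call the cells murine breast cancer cells, whereas the markers found immune, stromal, skin and normal mammary cells beside the tumour cells.

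The 6 libraries held between 678337 and 2207534 UMIs over 5000 barcodes each, and between 332 and 2325 barcodes per library passed the minimum of 200 genes, with median depths of 400 to 834 UMIs. Across libraries, 65 barcodes occurred more than once, 33 of them among the 6730 that were kept. FVIO-MHT replicate 1 stood apart: 265 of its 332 barcodes were neutrophil-like, it had 0 tumour cells, and its kept barcodes held 1 keratin UMI. FVIO-MHT replicate 3 stood apart in another way, with 1007 of the 1110 barcodes of a cluster led by haemoglobin genes. Levels are given in CPM, the UMIs of a gene in a group of cells over all UMIs of those cells, on the counts-per-million scale. Drop-seq reads the 3′ end of each RNA, so no length scaling was applied, and levels of different genes are compared only as counts of molecules.

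The sequences just upstream of the genes are shown for the pair that dominated the tumour cells (Krt8 and Krt18), for an epidermal gene of each type (Krt5 and Krt10), and for 5 inner root sheath keratins whose UMIs fell together in 1 small group of cells. They are RefSeq promoter windows on GRCm38.p6, cut to the 100 bases before the first base that RefSeq or GENCODE calls transcribed, 5′ to 3′. Capitals mark TATAAA, the core of a TATA box. The windows lie at chr15:102004483-102004582 (minus strand) for Krt8, chr15:102028080-102028179 (plus strand) for Krt18, chr15:101712906-101713005 (minus strand) for Krt5, chr11:99389365-99389464 (minus strand) for Krt10, chr11:99322952-99323051 (minus strand) for Krt25, chr11:99374904-99375003 (minus strand) for Krt28, chr11:99351119-99351218 (minus strand) for Krt27, chr15:101743110-101743209 (minus strand) for Krt71 and chr15:101802361-101802460 (minus strand) for Krt73.
Krt8: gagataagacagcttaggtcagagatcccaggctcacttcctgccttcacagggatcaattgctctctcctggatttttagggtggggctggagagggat
Krt18: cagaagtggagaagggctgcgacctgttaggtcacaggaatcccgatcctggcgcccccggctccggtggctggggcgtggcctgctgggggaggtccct
Krt5: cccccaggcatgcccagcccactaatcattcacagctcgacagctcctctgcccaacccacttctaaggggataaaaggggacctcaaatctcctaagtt
Krt10: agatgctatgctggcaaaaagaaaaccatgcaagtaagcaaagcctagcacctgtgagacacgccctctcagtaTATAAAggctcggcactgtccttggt
Krt25: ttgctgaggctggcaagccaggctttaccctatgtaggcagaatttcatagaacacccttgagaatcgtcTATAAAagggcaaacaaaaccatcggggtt
Krt28: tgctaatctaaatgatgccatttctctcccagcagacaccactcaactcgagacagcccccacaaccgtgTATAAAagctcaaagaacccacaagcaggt
Krt27: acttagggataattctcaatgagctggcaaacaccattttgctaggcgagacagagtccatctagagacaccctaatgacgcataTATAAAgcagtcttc
Krt71: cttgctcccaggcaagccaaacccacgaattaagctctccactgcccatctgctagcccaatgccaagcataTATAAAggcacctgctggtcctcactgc
Krt73: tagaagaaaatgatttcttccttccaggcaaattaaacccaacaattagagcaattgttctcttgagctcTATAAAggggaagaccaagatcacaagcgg
The table held a promoter window for 34 of the 47 members. TATAAA stood in the sense strand of the last 100 bases before the RefSeq start in 14 of these 34 members (41.2%), among them Krt10 and the 5 hair keratins shown, against 3.80% of all 32851 windows. Over the full 300 bases and both strands, 52.9% of the members with a window and 13.6% of all windows held it. The Sp1-type letters GGGCGG went the other way: 5.88% of the members (Krt7 and Krt75) and 35.7% of all windows held them on either strand. The AP-1 letters TGANTCA stood in 1 of the 34 members (Krt13) and 7.81% of all windows, and the AP-2 letters GCCNNNGGC in 6 of 34 members (17.6%) and 16.6% of all windows, on either strand. These are matches of letters and were not tested as binding sites.

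In the annotation (GENCODE M21, mm10) Krt8 lies at chr15:101996698-102004482 on the minus strand, Krt18 at chr15:102028180-102032027 on the plus strand, Krt7 at chr15:101411043-101430313 on the plus strand, Krt5 at chr15:101707070-101712898 on the minus strand, and Krt14 and Krt19 at chr11:100203162-100207548 and chr11:100140810-100148665, both on the minus strand. Of the 26 type I genes, 25 lie on chromosome 11 and Krt18 alone lies on chromosome 15, beside Krt8 and with all 21 type II genes. Within the last 500 bases of their transcripts, 8 members shared at least 1 stretch of 50 bases with another gene. Krt14 and Krt17 shared 43 such stretches with each other, Krt16 shared 70 with Gm11597 and 6 with Krt14, Krt27 shared 27 with Krt25, and Krt18 shared 5 with Gm5200. Krt7 overlaps the antisense gene Gm671, Krt10 overlaps Gm11940, and Krt8 overlaps a long noncoding RNA on the other strand. How reads were assigned to genes and strands is not given here, so the split of UMIs within these groups is uncertain.

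Most of the keratin RNA came from 3 genes. Krt18 had 7525 UMIs, Krt8 had 5342 and Krt7 had 2379, together 85.0% of the family's UMIs. Next came Krt14 with 635, Krt19 with 433, Krt16 with 356, Krt5 with 307, Krt10 with 209, Krt17 with 188, Krt1 with 141, Krt15 with 116 and Krt25 with 64. The other 21 members with a UMI had between 1 and 47, 251 in all, and 6 of them had a single UMI. Type I and type II members held similar sums, 9619 and 8327 UMIs.

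Cells were grouped into clusters without using any gene whose symbol starts with Krt, and clusters were named from markers other than keratins. The tumour epithelial-like class was made of 4 clusters with 2487 cells: between 4 and 9 of 12 general epithelial markers (Epcam, Cdh1, Cldn4, Spint2 and others) marked each. A mixed cluster of 162 cells and a luminal one of 64 cells were divided further into 6 sub-clusters. This gave 101 skin keratinocyte-like cells with high Lgals7, a skin galectin, 97 mammary luminal-like cells with Prlr, the prolactin receptor, and Wfdc18, and 28 mammary myoepithelial-like cells with the smooth muscle genes Acta2 and Myh11. The tumour cells had low levels of the skin list (104 CPM summed over 14 genes, against 12571 in the skin cells). Their luminal list was low too (317 CPM over 15 genes, against 21937 in the luminal cells). The same lists named the skin and luminal classes, so both contrasts were fixed in part by the naming. The differences in keratins between these classes are a description, since the classes were drawn from the same cells.

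**Figure D1:**
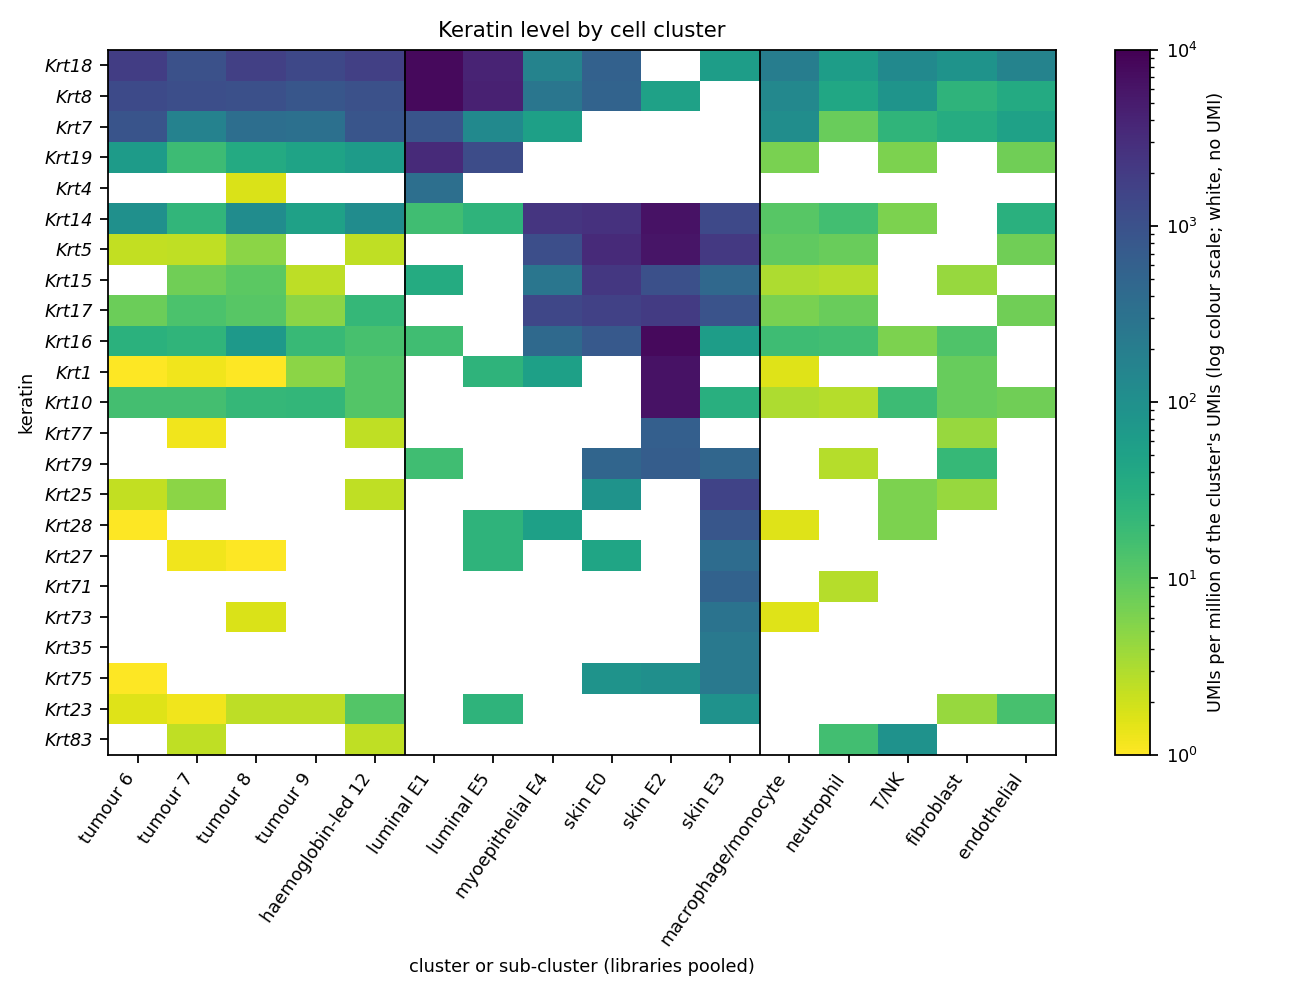
Level of 23 keratins (rows) in tumour clusters, the haemoglobin-led cluster, epithelial sub-clusters and 5 other cell classes (columns), as CPM on a log colour scale with white for no UMI. Krt18 and Krt8 fill the tumour and luminal columns, Krt5 and Krt14 the skin and myoepithelial ones, Krt1 and Krt10 sub-cluster E2, and Krt25, Krt28, Krt71 and Krt73 sub-cluster E3.

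Tumour cells held 12690 of the 17946 keratin UMIs (70.7%), and their keratin was simple epithelial. Krt18, the type I partner of Krt8, stood at 1289 CPM in FVIO-MHT replicate 2 and 2012 in FVIO-MHT replicate 3, and at 1036, 1658 and 1504 in PBS replicates 1 to 3. Krt8 stood at 1137 and 1255 CPM in the same FVIO-MHT libraries and at 1169, 1044 and 829 in the PBS ones. Over the 5 libraries with tumour cells, Krt18 averaged 1500 ± 370 CPM (SD, n = 5) and Krt8 1087 ± 162. Krt18 varied more between libraries than Krt8, and the groups overlapped for both.

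Krt7, a type II keratin of ductal epithelia, had the largest SD between the tumour cells of different libraries in CPM. Relative to the mean it did not: the low Krt25, Krt5 and Krt1 had SDs above their means, and Krt7 did not. Krt7 stood at 204 CPM in FVIO-MHT replicate 2 and at 1082 in FVIO-MHT replicate 3, against 112, 397 and 283 in the PBS libraries. Its mean was 416 ± 387 CPM (n = 5), and 249 without FVIO-MHT replicate 3. In that library 57.6% of tumour cells had a Krt7 UMI, against 11.8% to 29.3% in the others. FVIO-MHT replicate 3 alone was high, and FVIO-MHT replicate 2 lay within the PBS range.

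The difference between libraries was also seen inside single tumour clusters. Cluster 6, led by Rhox5 and by cell division genes such as Top2a and Birc5, held 561 of the 606 tumour cells of FVIO-MHT replicate 3, with Krt7 at 1091 CPM there, 241 in FVIO-MHT replicate 2, and 140 and 766 in PBS replicates 1 and 2. In cluster 9, led by Tnnt2 and Cp, the same gene stood at 937 CPM in FVIO-MHT replicate 3 and between 109 and 430 in the other 4 libraries. In PBS replicate 2, whose cells were spread over all 4 tumour clusters, Krt7 ranged from 314 to 766 CPM with the top value in cluster 6. Krt18 ranged from 1167 to 1761 CPM and Krt8 from 882 to 1254 in the clusters of that library. Keratin was also higher in the immune cells of FVIO-MHT replicate 3: its macrophage-like cells held 909 keratin CPM, against 161 to 486 in FVIO-MHT replicate 2 and the PBS libraries, and the part this plays in the Krt7 difference was not tested.

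**Figure D2:**
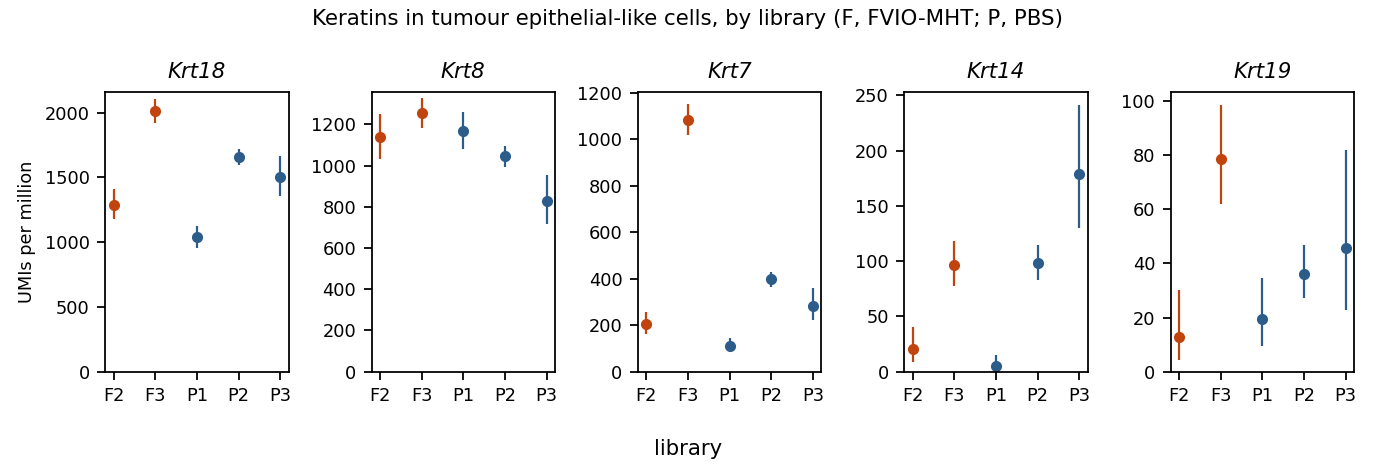
Level of 5 keratins in tumour epithelial-like cells of each library with such cells, in CPM on linear axes that start at 0 (points; bars, 95% Poisson intervals that cover counting error only). Krt8 lies between 829 and 1255 in all 5 libraries, while Krt7 reaches 1082 in FVIO-MHT replicate 3 and stays at 397 or below in the others.

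The haemoglobin-led cluster carried the same simple keratins. Its 1110 barcodes held Krt18 at 1725 CPM, Krt8 at 1036 and Krt7 at 888, in cells with a median of 307.5 UMIs. Of these barcodes, 1007 came from FVIO-MHT replicate 3, where Krt7 stood at 960 CPM. In FVIO-MHT replicate 2 and PBS replicates 1 and 2 it stood at 114, 378 and 469, from 2, 4 and 6 UMIs. The cluster was left unnamed because 3 epithelial, 3 fibroblast and 3 erythroid markers passed alike, and Hbb-bs and Hba-a1 led it. With it joined to the tumour class, the mean over libraries was 1480.5 CPM for Krt18, 1074 for Krt8 and 408 for Krt7.

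Other keratins were low in tumour cells. Krt14 stood at 20.7 and 96.6 CPM in the FVIO-MHT libraries and at 5.3, 98.0 and 179 in the PBS ones. Krt19, a type I keratin of luminal and ductal cells, stood at 12.9 and 78.7 CPM and at 19.3, 36.1 and 45.8. Means were 80.0 ± 69.9 and 38.6 ± 26.0 CPM (SD, n = 5). Krt16 averaged 41.2 ± 27.0 CPM, Krt10 18.5 ± 7.0, Krt17 14.3 ± 12.9, Krt15 5.5 ± 3.6, Krt5 5.4 ± 8.7, Krt25 5.1 ± 11.1 and Krt1 2.8 ± 3.8. So the basal type II partner Krt5 was near 0 on average in these cells. Krt14 was as low in PBS replicate 1 (5.3 CPM) and higher in the other libraries. PBS replicate 3, the library richest in skin cells, had the highest values of Krt14, Krt5 and Krt25 in its tumour cells, and how far RNA from those cells reached them was not tested.

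Mammary luminal-like cells held higher levels of Krt8, Krt18 and Krt19 than the tumour cells of any library, while their Krt7 lay within the range of the tumour cells in 2 of 3 libraries. There were 23, 35 and 38 such cells in PBS replicates 1 to 3, 1 in FVIO-MHT replicate 2 and 0 in the other FVIO-MHT libraries, so no comparison between the groups could be made. Krt8 stood at 7510.0, 5983 and 6075 CPM in the PBS libraries and Krt18 at 8303, 5088 and 6480.4. Krt19 stood at 2239, 1767 and 3552 CPM, and Krt7 at 1166, 330 and 529.6. Of all Krt19 UMIs in the study, 55.9% were in these 97 cells and 36.5% in the 2487 tumour cells. Krt5, Krt10 and Krt17 had no UMI among 98602 UMIs of the class, which allows up to 30.4 CPM each.

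Luminal cells fell into 2 kinds. Sub-cluster E1 (59 cells), led by Areg, Prlr and Cited1, genes of the hormone-sensing luminal lineage, held Krt18 at 8034 CPM, Krt8 at 7966, Krt19 at 3326 and Krt7 at 869.9. Sub-cluster E5 (38 cells), led by the milk genes Csn3 and Wfdc18 and by Ltf, held Krt8 at 4253, Krt18 at 3977, Krt19 at 1176 and Krt7 at 125. Prlr, Areg, Pgr and Esr1 also passed as markers in E5, so they were not particular to E1. Within PBS replicate 2 the levels of Krt18 were 7868 in E1 and 3468 in E5, and within PBS replicate 3 they were 7231 and 4709. Krt19 followed, at 3071 and 1007 CPM in PBS replicate 2 and 4259 and 1884 in PBS replicate 3. Krt4 (22 UMIs, below the minimum of 50 for full description and named after its values were seen) had 20 of its UMIs in E1, in 10 cells, and 0 in E5.

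Skin keratinocyte-like cells held a different set, with high Krt5, Krt14 and Krt16 and no Krt7 or Krt19 UMI. These cells were present in number only in FVIO-MHT replicate 2 (34 cells) and PBS replicate 3 (56 cells), with 0, 1, 2 and 8 in the others, so no test between the groups was made. In these libraries Krt5 stood at 4488 and 3075 CPM, Krt14 at 4322 and 2487, Krt17 at 1953 and 1153, and Krt15, a marker of basal and hair follicle stem cells, at 1496 and 1018. Krt1 stood at 1496 and 2035 CPM, Krt10 at 665 and 2487, and Krt16, a keratin of activated and hyperproliferative skin, at 5278 and 972. The 2 libraries differed in their mix, with 17, 10 and 7 cells of sub-clusters E0, E2 and E3 in the first and 10, 19 and 27 in the second. Krt7 and Krt19 were at 0 of 75172 UMIs, which allows up to 39.9 CPM. Of the 13 Krt8 UMIs in the class, 12 lay in the 2 barcodes from PBS replicate 1.

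The skin cells also divided by keratin. Sub-cluster E0 (31 cells, led by Slc7a8, Jag2 and the interferon-inducible Iigp1) had a basal set: Krt5 at 3351 CPM, Krt14 at 2681, Krt15 at 2234 and Krt17 at 1698, with 0 UMIs of Krt1 and Krt10. Within E0, Krt5 stood at 4737 CPM in the 17 cells of FVIO-MHT replicate 2 and at 1329 in the 10 of PBS replicate 3. Krt14 stood at 3184 and 1727 in these libraries, Krt15 at 1941 and 2657, and Krt17 at 1553 and 1727. Sub-cluster E2 (31 cells, led by Calm4, Dmkn and the inflammatory skin genes Stfa3 and Serpinb2) had a differentiated set on top of the basal one: Krt16 at 7900.5 CPM, Krt1 at 6422, Krt10 at 6371, Krt14 at 6269 and Krt5 at 5964. Of all Krt1 UMIs, 126 of 141 were in E2. Within E2, Krt16 stood at 15688 CPM in the 10 cells of FVIO-MHT replicate 2 and at 3357 in the 19 cells of PBS replicate 3, while Krt1 stood at 4869 and 7952 and Krt10 at 2164 and 9631. With 1 library in each group these values have no replicate check.

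The third skin sub-cluster carried hair keratins. E3 (39 cells, 27 from PBS replicate 3) was led by Dcn, Msx2, Lef1 and Bmp4, and 4 of 6 genes of the hair follicle list had a UMI in it. Krt25, a type I keratin of the inner root sheath, stood at 1567 CPM (95% Poisson interval 1171 to 2056), with 52 of the 64 Krt25 UMIs of the study, in 16 cells. The following members had fewer than 50 UMIs and were named after their values were seen. Krt28 had 28 of 33 UMIs in E3, Krt27 had 13 of 17, Krt71 had 18 of 19 and Krt73 had 10 of 13. Nearly all of this came from 1 library. Over all its kept barcodes, PBS replicate 3 held 62 of 64 Krt25 UMIs and 30 of 33 for Krt28. It also held 16 of 17 for Krt27, 19 of 19 for Krt71 and 11 of 13 for Krt73. FVIO-MHT replicate 2, with 7 E3 cells, had 0 UMIs of each, so the pattern has no replicate check. All 8 UMIs of Krt35, a hair cortex keratin, lay in 1 cell of E3. Both types were thus present: Krt25, Krt27 and Krt28 are type I, and Krt71 and Krt73 are type II. E3 also held Krt5 at 2201 CPM and Krt14 at 1296. Dcn is a fibroblast gene, and 2 of 7 fibroblast markers had a UMI in E3. They summed to 1055 CPM there, against 223 in E0 and 459 in E2, and their part in the hair keratin levels was not tested.

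Myoepithelial-like cells had basal keratins and almost no Krt1 or Krt10 UMI. In 28 cells, 16 from PBS replicate 2 and 11 from PBS replicate 3, Krt14 stood at 2228 and 2664 CPM, Krt17 at 1114 and 1823, and Krt5 at 650.0 and 1543. Krt1 had 1 UMI there and Krt10 had none, which allows up to 279 CPM in PBS replicate 2 and 421 in PBS replicate 3. Krt16 had 8 UMIs, at 279 and 701 CPM in these libraries, from 1 cell in each.

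Several rare members lay in few cells. Krt79 (47 UMIs), a keratin of sebaceous ducts, had 33 UMIs in 6 skin-like cells of PBS replicate 3 and 7 in 1 skin-like cell of FVIO-MHT replicate 2. Krt77 (15 UMIs), a keratin of eccrine sweat ducts and epidermis, had 12 UMIs, all in E2 among the skin cells. Krt83 (24 UMIs), a hair cortex keratin, had most of its UMIs in lymphocytes: 15 lay in 11 of 375 T/NK-like cells, from 4 libraries with 3, 6, 1 and 5 UMIs, and 6 in neutrophil-like cells. Its transcript end shared no stretch of 50 bases with another gene, although 81 stretches from the end of Krt81 also occur in Krt83. Krt20 (4 UMIs) lay entirely in 3 of the 19 endothelial-like cells of FVIO-MHT replicate 2. These members were named after their values were seen.

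Of the 4 epithelial classes, the type I and type II sums differed most in the few myoepithelial-like cells. Tumour cells of FVIO-MHT replicates 2 and 3 had 1.04 and 0.96 type I UMIs per type II UMI, and those of PBS replicates 1 to 3 had 0.85, 1.30 and 1.65, on average 1.16 ± 0.32 (SD, n = 5). In luminal cells the ratio was 1.15, 1.08 and 1.48 in the PBS libraries, and in skin cells it was 2.14 for FVIO-MHT replicate 2, against 1.49 for PBS replicate 3. The 28 myoepithelial-like cells held 87 type I and 27 type II UMIs, a ratio of 3.22. The type II sums leave out Krt6a and Krt6b, type II keratins that were no members. Krt6a had 22 UMIs in skin cells, 34 in luminal cells and 1 in tumour cells. Krt6b had 16 in skin cells and 4 in tumour cells. Counting them would lower the pooled ratios of skin and luminal cells. Tumour cells with a type I UMI held a type II UMI in 65.1% to 84.8% of cells per library, and tumour cells without one in 40.4% to 60.5%. Cells with more UMIs in all are more likely to show any gene, and this shares depth with both counts.

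**Figure D3:**
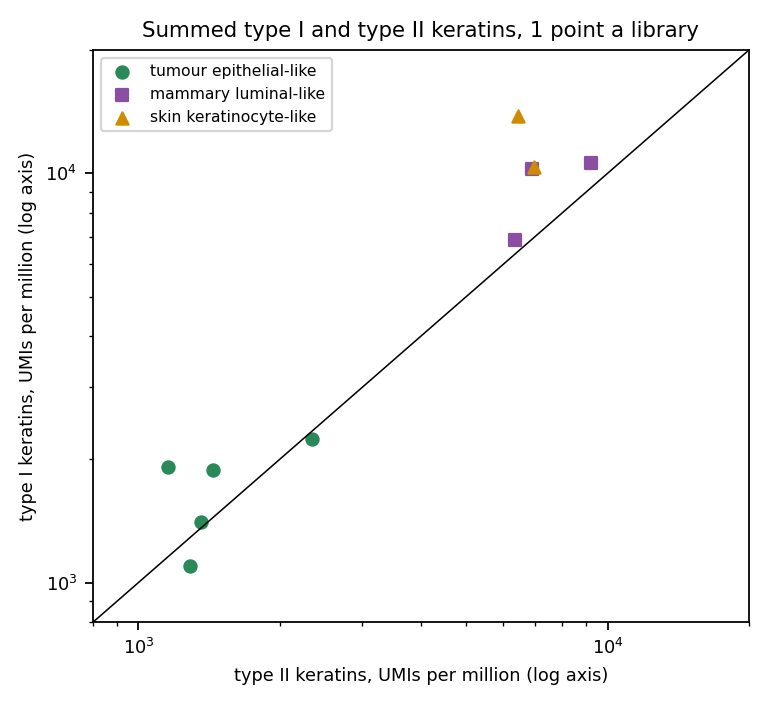
Summed type I keratins (y axis) against summed type II keratins (x axis) in CPM on log axes, with a point per library that held 20 or more such cells; the line marks equal sums. Tumour points lie on both sides of the line, and the 3 luminal and 2 skin points lie above it at higher levels of both types.

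Keratin UMIs outside epithelial cells set a background for shares of cells. After each cell was thinned to 300 UMIs, 32.7% of 2374 tumour cells had a Krt18 UMI (exact interval 30.8% to 34.6%), 75.3% of 93 luminal cells, 2.17% of 92 skin cells, 4.83% of 848 macrophage-like cells and 0.71% of 704 neutrophil-like cells. Without thinning, the shares were 66.6% of 2487 tumour cells (median 1061 UMIs), 87.6% of 97 luminal cells (median 752), 5.94% of 101 skin cells (median 557), 7.43% of 1037 macrophage-like cells (median 455) and 2.26% of 753 neutrophil-like cells (median 429). Krt18 in skin cells was thus no higher than in macrophage-like cells. For Krt5 the thinned shares were 51.1% in skin cells, 20.8% in myoepithelial-like cells, 0.126% in tumour cells and 0.354% in macrophage-like cells, so the tumour share did not exceed that background. For Krt14 they were 34.8% in skin cells and 41.7% in myoepithelial-like cells. In tumour cells the share was 1.90% (1.39% to 2.53%), and in macrophage-like cells 0.354% (0.073% to 1.03%). These shares pool cells over libraries, and their intervals cover counting error only. The pooled tumour share lay above the macrophage one, but Krt14 in tumour cells ran from 5.3 to 179 CPM between libraries. The pooled shares do not show whether this held in each library. Neutrophil-like cells stood at 0.568% (0.155% to 1.45%), and that interval touches the one of the tumour cells.

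Genes that work beside keratins are given for the same classes. Some of them (Krtdap, Sbsn, Col17a1, Pkp1 and Dsc3) were also markers that named the skin class, so their levels there were fixed in part by the naming. Among other intermediate filaments, vimentin (Vim), the filament of mesenchymal cells, stood at 2093 CPM in tumour cells against 30.4 in luminal and 26.6 in skin cells, while the nuclear lamin Lmna was present in all of them (1132, 2028 and 1756 CPM). Desmosomes anchor keratin filaments at cell contacts, and their 15 genes summed to 545 CPM in tumour cells, 1176 in luminal cells and 5827 in skin cells, with Dsp, which binds keratin, at 63.8, 183 and 1809. Hemidesmosomes anchor the same filaments to the basement membrane, and their 9 genes summed to 1049, 1136 and 1929 CPM, and to 2861 in myoepithelial-like cells. The 14 cornified envelope genes, which form the outer skin barrier, summed to 12.7 CPM in tumour cells and 4995 in sub-cluster E2, where Krtdap stood at 3619. Of the keratins with a letter, Krt6a stood at 968 CPM and Krt6b at 816 in E2, and Krt6a at 478 in luminal sub-cluster E1.

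The first comparison between the groups asked whether keratin RNA differed over all kept barcodes of a tumour. Such sums mix cell numbers with RNA per cell, and fewer cells of a type and less RNA per cell cannot be told apart in them. Across FVIO-MHT replicates 1 to 3, Krt18 stood at 0, 630.5 and 1552 CPM, and in the PBS libraries at 907, 1538 and 1249. Krt8 stood at 0, 556 and 953 CPM against 982, 1025 and 864. FVIO-MHT replicate 1 was at 0 for both, FVIO-MHT replicate 3 was within or near the PBS range, and the groups overlapped. Krt7 stood at 0, 93.2 and 841 CPM against 106, 346 and 191, with the lowest and the highest library both in the FVIO-MHT group. Tumour cells made up 0.0%, 19.8% and 26.1% of kept barcodes in the FVIO-MHT libraries and 40.1%, 72.7% and 36.7% in the PBS ones.

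Krt19 was the 1 tested keratin whose groups did not overlap: 0, 11.1 and 59.5 CPM with FVIO-MHT against 69.3, 71.1 and 268 with PBS. The same held, with FVIO-MHT lower, for 9.46% of the 8603 genes tested (3.17% the other way). Its log2 fold change was -2.27 ± 0.92 (SE) in edgeR's quasi-likelihood test, with an adjusted p of 0.878. The change was -1.34 without PBS replicate 3 and -3.93 without FVIO-MHT replicate 3. The luminal cells, which held 55.9% of Krt19 UMIs, numbered 0, 1 and 0 in the FVIO-MHT libraries and 23, 35 and 38 in the PBS ones, and their part in the difference was not tested. Krt5 followed the libraries with skin cells, at 0, 131 and 0.6 CPM against 0, 17.8 and 329. Krt10 stood at 0, 24.4 and 12.02 CPM against 12.5, 18.3 and 257, so it was high in PBS replicate 3 only. Of its UMIs, 60.3% lay in skin cells and 32.5% in tumour cells. Skin-like cells made up 3.24% of barcodes of FVIO-MHT replicate 2 and 11.6% of those of PBS replicate 3, the libraries in which Krt5 was high.

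**Figure D4:**
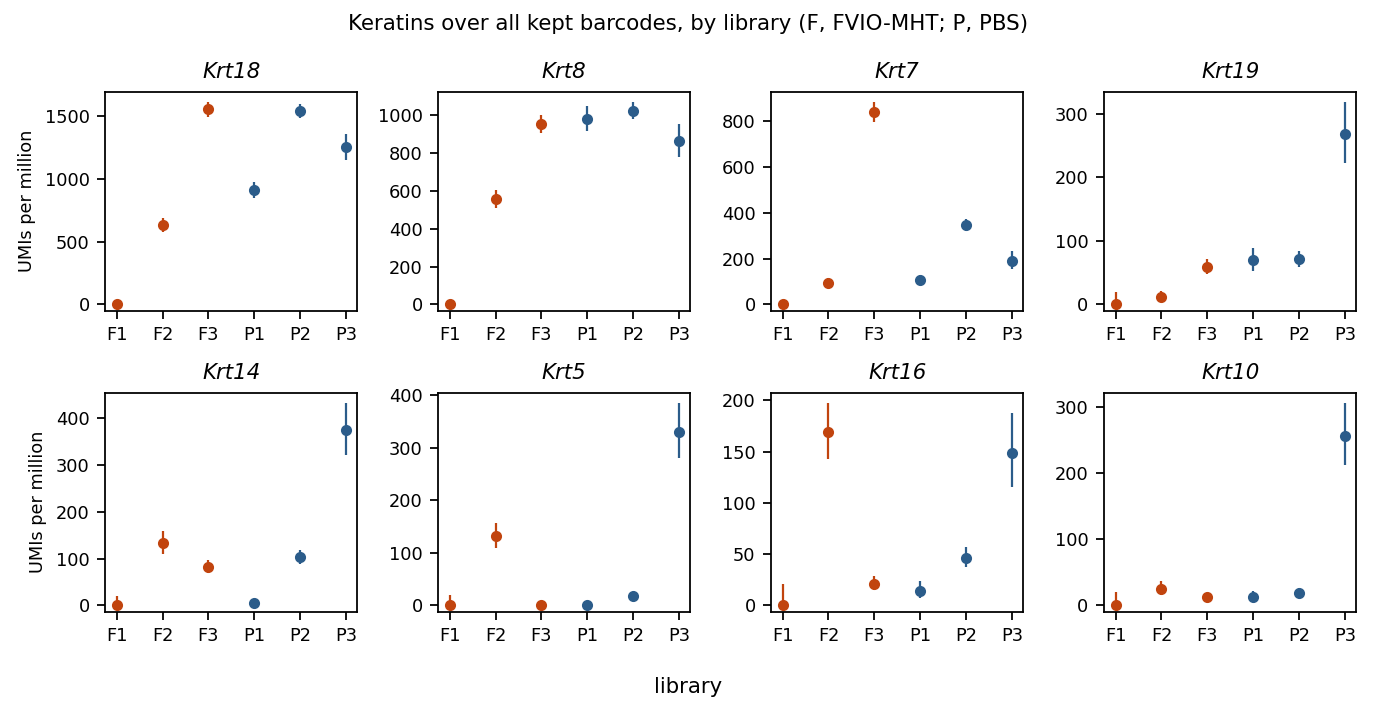
Level of 8 keratins over all kept barcodes of each library, in CPM on linear axes (points; bars, 95% Poisson intervals that cover counting error only). FVIO-MHT replicate 1 is at 0 in every panel, Krt19 is lower in all 3 FVIO-MHT libraries, and Krt5 is high in FVIO-MHT replicate 2 and PBS replicate 3 only.

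No keratin passed the test over the whole tumour. Of the 47 members, 9 passed the filter on low counts, and edgeR called 0 of them at an adjusted p under 0.05; it called 0.0% of the 8603 genes tested, while 5.24% had an unadjusted p under 0.05, among them Krt19 of the keratins. DESeq2 called 94 of the 2518 genes it gave an adjusted p (3.73%; 3.34% higher and 0.397% lower with FVIO-MHT), of which 0 were keratins. Log2 fold changes were -0.81 ± 1.23 for Krt18, -0.96 ± 1.15 for Krt8, 0.49 ± 1.22 for Krt7, -1.06 ± 1.27 for Krt14, -1.21 ± 1.87 for Krt5, -0.92 ± 1.28 for Krt17, 0.02 ± 1.12 for Krt16 and -2.63 ± 1.22 for Krt10. Their median was -0.96 over the 9 keratins and -0.04 over all genes tested. Single libraries set these values: without PBS replicate 3 the change was 2.29 for Krt5, 0.44 for Krt14, 1.25 for Krt17 and -0.07 for Krt10, and without FVIO-MHT replicate 1 it was -0.20 for Krt18 and -0.37 for Krt8.

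The second comparison asked the same of tumour cells alone, which takes their number in each library out of the sums. It used FVIO-MHT replicates 2 and 3 and all 3 PBS libraries, since FVIO-MHT replicate 1 had no such cell. Of the 47 members, 8 passed the filter, and edgeR called 0 of them and 0.0% of the 7477 genes tested at an adjusted p under 0.05 (9.28% had an unadjusted p under 0.05, with 0 keratins among them; DESeq2 called 36 of 4530 genes, 0.795%, of which 0.0221% of genes were higher and 0.773% lower with FVIO-MHT, with 0 keratins). Krt18 changed by 0.15 ± 0.35 (log2, SE) and Krt8 by 0.14 ± 0.29, differences that did not exceed their errors. Krt7 had a log2 fold change of 1.21 ± 0.66 with an adjusted p of 0.601 in edgeR, and of -0.54 without FVIO-MHT replicate 3. Krt17 had 0.93 ± 0.99, Krt19 0.53 ± 0.62, Krt10 -0.47 ± 0.55, Krt14 -0.58 ± 0.94 and Krt16 -0.77 ± 0.61. The groups overlapped for all 8, while 17.8% of the genes tested did not overlap with FVIO-MHT higher and 9.12% with FVIO-MHT lower. The median was 0.15 for the keratins and 0.02 for all genes tested.

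**Figure D5:**
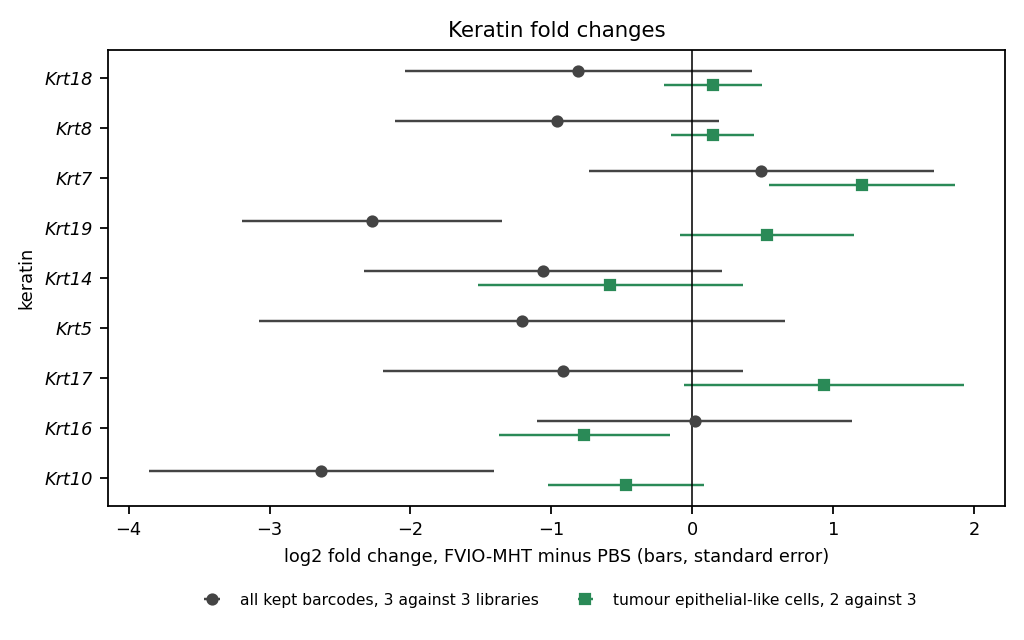
Log2 fold change of each tested keratin, FVIO-MHT minus PBS (x axis), over all kept barcodes (grey circles, 3 against 3 libraries) and in tumour epithelial-like cells (green squares, 2 against 3 libraries); bars are standard errors. Krt18 and Krt8 lie at -0.81 and -0.96 over all barcodes and at 0.15 and 0.14 within tumour cells; Krt5 was tested over all barcodes only.

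The partner genes gave no called difference either. Over the whole tumour, edgeR called 0 genes of any list, with medians of 0.13 for 4 other intermediate filament genes, -0.50 for 8 desmosome genes, -0.04 for 8 hemidesmosome genes and -0.71 for 5 epithelial transcription factors. In tumour cells, edgeR called 0 genes of any list: 4 of 9 other intermediate filament genes were tested with a median log2 fold change of 0.40, 8 of 15 desmosome genes with 0.30, 8 of 9 hemidesmosome genes with 0.47 and 4 of 12 epithelial transcription factors with 0.04, against 0.02 over all genes. The hemidesmosome integrins Itgb4 and Itga6 stood at 182 ± 24.1 and 198 ± 56.0 CPM with FVIO-MHT (SD, n = 2) and at 109 ± 15.2 and 125 ± 24.3 with PBS (n = 3) without overlap, which held in that direction for 17.8% of the 7477 genes tested. These 2 genes, and Lmnb1 and Klf4, were singled out after their values were seen. Lmnb1, a nuclear lamin, stood at 77.0 ± 8.0 against 32.2 ± 2.1 CPM, with a log2 fold change of 1.15 ± 0.32 and an adjusted p of 0.386 in edgeR. Klf4, a transcription factor of the skin barrier, stood at 216 ± 184 against 691 ± 100.5 CPM, a change of -1.82 ± 0.51 with an adjusted p of 0.389 in edgeR. Cornified envelope genes and the keratins with a letter were too low to be tested.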

How the data were processed

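Single-cell libraries were made by Drop-seq from dissociated tumours, per the labels' protocols. The submitters' processing notes name STAR 2.7.2b and mm10. No source used here gives the tool that counted UMIs, its annotation and strand setting, or how the barcodes were picked. The authors deposited a matrix of raw UMI counts per library, with 27998 gene rows and 5000 barcodes. A repeated symbol was counted once (65 rows dropped).

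Barcodes with at least 200 genes and at most 20% mitochondrial UMIs were kept (6730; the mitochondrial limit removed 0). Clusters (scanpy 1.11.5; 2000 variable genes, 30 components, 15 neighbours, Leiden resolution 1) were drawn without genes starting with Krt, and the mixed epithelial clusters were divided again in the same way. A class needed 3 markers, each in 5% of cells and 2-fold above the median over clusters, with 1 of them among the 20 leading genes (not required of sub-clusters). The tumour class was given last, by 3 epithelial markers set against the named non-epithelial clusters, where no other class was met, and a cluster with as many epithelial markers as markers of its own class stayed unnamed. Scrublet called 39 barcodes (0.579%), which were kept. UMIs were summed per library and class; means are over libraries with at least 20 cells. Groups were compared with edgeR 4.0.16 (R 4.3.3, glmQLFit, TMM, filterByExpr, Benjamini-Hochberg over all genes tested, threshold 0.05), with DESeq2 1.42.0 as an alternative. edgeR gives no standard error here, so those printed are the absolute log2 fold change over the square root of the test's F statistic. The edgeR fit was tested on simulated counts with large changes and a fixed spread, which does not measure its power in these data. Other alternatives were RLE size factors, no low-count filter, a replicate block, other gene and cell minimums, a finer clustering, clustering with keratins, Scrublet calls left out, and each library left out in turn. Members with at least 50 UMIs and Krt1, Krt5, Krt7, Krt8, Krt14, Krt18 and Krt19 were described with values, and up to 4 genes of each partner list, those with the most UMIs, beside genes singled out after their values were seen. Members, lists and markers were chosen with earlier results of these data known, and the naming rule and the sub-clusters were settled after the clusters were seen. Intervals and limits from 0 counts (3 UMIs over the class) cover counting error only. Gene positions are from GENCODE M21 and promoter windows from RefSeq (GRCm38.p6). No protein sequence was used.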

Additional observations from a re-analysis of the deposited data

Results flagged for a closer look

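Barcodes with fewer than 200 detected genes were left out of every comparison, and they held keratin RNA too. In FVIO-MHT replicate 3 they stood at 2908 keratin CPM, above the highest PBS library; the PBS libraries stood at 227, 1727 and 2771, and FVIO-MHT replicates 1 and 2 at 59.0 and 1204. The 2675 such barcodes of FVIO-MHT replicate 3 held 1339 keratin UMIs.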

How the results depend on the processing

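No keratin passed the threshold under any alternative run, in either comparison; adjusted p over all of them ran from 0.056 (Krt7 in tumour cells without a low-count filter) to 1.00. Of the log2 fold changes recomputed, 218 kept their direction and 22 turned. Over the whole tumour, Krt16 (0.02) turned to -0.15 with DESeq2, -0.0076 with RLE size factors, -0.0105 without a low-count filter and -0.22 at 400 genes. All genes called over the whole tumour rose from 0 to 94 with DESeq2 and 2 without the filter, and in tumour cells from 0 to 36 with DESeq2 and 160 without the filter. At 400 genes, mean Krt5 and Krt14 in skin cells were 2028 and 1939.9 CPM. Leaving out 1 library gave, over the whole tumour, -2.20 to 1.14 for Krt16, -1.76 to 0.44 for Krt14, -3.36 to 1.25 for Krt17, -1.94 to 1.08 for Krt7 and -7.51 to 2.29 for Krt5; in tumour cells, -1.47 to 1.20 for Krt19, -2.23 to 0.073 for Krt14, -0.25 to 1.72 for Krt17, -0.54 to 1.95 for Krt7 and -0.27 to 0.45 for Krt18, and 0 to 191 genes called (191 without FVIO-MHT replicate 2, 10 without PBS replicate 1; a group left with 1 library was assumed to vary like the other). The causes were not tested. Joining the haemoglobin-led cluster, an alternative chosen after seeing the data, changed no direction.

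The replicate numbers are not said to pair animals, so they were not taken as pairs. Deviations of same-numbered libraries from their group means correlated at 0.15, 0.01 and -0.08 over the whole tumour. FVIO-MHT replicate 3 and PBS replicate 2 reached 0.31 there. In tumour cells the same-numbered values were -0.14 and 0.11. With 2 FVIO-MHT libraries, their deviations from the group mean mirror each other, so these correlations cannot decide whether the numbers are pairs. With a replicate block the changes over the whole tumour were -0.89 for Krt16 and -1.12 for Krt7. In tumour cells they were -0.30 for Krt19 and -0.081 for Krt18, and 1 gene was called. Depth limits the rare members: a class such as the luminal cells allows up to 30.4 CPM for a gene with no UMI. A minimum of 50 tumour cells per library kept the same 5 libraries and gave the same values.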
